A study of Mus musculus with 10 samples.

Results

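The glycogen synthesis enzymes described here are Gys1, Gbe1, Pgm1 and Pgm2. They were taken by gene symbol, and each of the 4 genes had 1 probe set (a group of short oligonucleotides that together read 1 transcript) among the 12488 on the array, which name 8252 genes in all. The samples were 10 arrays of total RNA from mouse hepatocytes. Hepatocytes lacking HIF-1alpha, the oxygen-regulated subunit of a hypoxia-inducible transcription factor, were kept in hypoxia (3 arrays), and wild-type hepatocytes given an adeno treatment were kept in hypoxia as well (3 arrays). The normoxic cells were adeno-treated (2 arrays) or untreated (2 arrays), and the labels give no genotype for either. The labels name no adeno treatment for the null cells, and the design has no normoxic null cells, so the oxygen response of null cells could be read only against normoxic cells of another kind. The adeno vector, the oxygen level, the time in hypoxia, the way HIF-1alpha was removed and the strain, sex and age of the animals are not stated in the labels.

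Glycogen is the branched glucose polymer in which liver stores sugar. Glucose 6-phosphate, made by hexokinases, is turned into glucose 1-phosphate by phosphoglucomutase, activated to UDP-glucose by Ugp2, added to a chain primed on glycogenin by glycogen synthase, and branched by the branching enzyme. Gys1 is the glycogen synthase of muscle and most other tissues, whereas the liver's own isoform is Gys2, and no probe set carried the symbol Gys2 in the platform annotation used here.

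Pgm1 stood for the phosphoglucomutase step (probe set 104313_at). In RefSeq on GRCm38.p6 it lies at chr4:99929451-99987294, and the same gene was called Pgm2 in earlier annotation. Pgm2 (104534_at, chr5:64092919-64128355) was in turn called Pgm1, and its human counterpart works mainly on pentose phosphates. Gys1 (98496_at) lies at chr7:45434839-45456617. Gbe1 (96803_at), the branching enzyme, lies at chr16:70313949-70569720. All 4 probe sets were brighter on average than the filter used for testing, a mean intensity of 40.1.

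The promoters of Gys1 and Pgm1 are shown because these were the 2 genes whose null and wild-type hypoxic arrays did not overlap, and Pgm2 is shown as the short stretch around its single motif match. Each RefSeq promoter window of GRCm38.p6 is 300 bases long on the plus strand. The windows of Gys1, Gbe1 and Pgm1 run from 250 bases before the gene start through its first 50 bases, and that of Pgm2 from 230 bases before through its first 70. Capitals mark ACGTG, 1 of the 2 forms searched of the core that hypoxia-inducible factors bind (the other was GCGTG), read on both strands. The Gys1 window is chr7:45434589-45434888 and the Pgm1 window is chr4:99929201-99929500.
Gys1: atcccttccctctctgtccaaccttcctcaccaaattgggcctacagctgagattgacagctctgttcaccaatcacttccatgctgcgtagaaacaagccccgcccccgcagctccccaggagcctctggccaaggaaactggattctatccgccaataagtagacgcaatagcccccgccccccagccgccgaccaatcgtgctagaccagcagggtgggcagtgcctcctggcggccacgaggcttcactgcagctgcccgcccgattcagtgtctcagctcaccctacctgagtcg
Pgm1: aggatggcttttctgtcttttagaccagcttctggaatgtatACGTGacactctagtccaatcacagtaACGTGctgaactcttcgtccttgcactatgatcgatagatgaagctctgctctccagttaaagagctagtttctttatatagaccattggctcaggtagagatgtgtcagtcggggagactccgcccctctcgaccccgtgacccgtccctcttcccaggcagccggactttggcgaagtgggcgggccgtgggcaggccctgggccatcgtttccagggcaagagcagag
Pgm2: gcggggctgctgCACGTcctcttccctccg
The Pgm1 window held ACGTG 2 times, starting 208 and 181 bases before the gene start. The Pgm2 window (chr5:64092689-64092988) held it 1 time on the minus strand, 42 bases before the start, where it reads CACGT. Neither the Gys1 window nor the Gbe1 window (chr16:70313699-70313998) held either form, and GCGTG was in none of the 4. Of all 32851 promoter windows of this length, 19.6% held ACGTG, 32.4% held GCGTG and 43.8% held at least 1 of them. A match here is a match of letters and says nothing of binding.

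The values are the intensities the authors deposited, in arbitrary units on a linear scale, with the arrays already brought to a common level: trimmed means lay between 199.6 and 200 and medians between 60 and 70.9. Correlations between arrays lay between 0.943 and 0.975 on the log2 scale, and no 2 arrays held identical values. Slc2a1, a glucose transporter, was higher in hypoxic wild-type than in normoxic adeno-treated cells by 3.24 on the log2 scale (adjusted p = 8.29e-05, limma), and Adm, which encodes adrenomedullin, was higher by 4.72 (adjusted p = 8.29e-05, limma), so both hypoxia markers moved with the oxygen label. The 2 Hif1a probe sets gave 1647.1, 1010.5 and 850 and 1689.4, 1140.6 and 910.3 on null arrays 1, 2 and 3, against 961.8, 703.2 and 711.2 and 1095.5, 704.3 and 712.5 on wild-type arrays 1, 2 and 3. Because the labels do not state which part of Hif1a was deleted, these readings do not check the null label.

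Hepatocyte markers were read on all arrays, together with markers of other liver cells. The summed intensity of 8 hepatocyte marker probe sets was 26900 to 32600 on null arrays, 24600 to 36200 on hypoxic wild-type arrays, 32400 to 39200 on normoxic adeno-treated arrays and 27500 to 30300 on untreated arrays. The sum of 20 stellate and fibroblast marker probe sets was 18019, 13295 and 6645 on null arrays 1, 2 and 3, 19647, 15062 and 6929 on hypoxic wild-type arrays 1, 2 and 3, 11800 to 12800 on normoxic adeno-treated arrays and 10800 to 11100 on untreated arrays. It thus differed more between array numbers than between the genotypes. The sums ranged from 157 to 2800 for 5 biliary, 918 to 1800 for 16 macrophage, 501 to 1290 for 8 endothelial and 366 to 1480 for 10 skeletal muscle marker probe sets, and no marker probe set read 0 on any array. In both hypoxic groups the biliary, macrophage and endothelial sums also fell from array number 1 to 3, and the hepatocyte sum rose. The biliary sum was 1875, 738 and 198 on null arrays 1, 2 and 3, and 2796, 684 and 157 on hypoxic wild-type arrays 1, 2 and 3. In cultures of mixed cells, fewer cells of a type and less RNA per cell cannot be told apart.

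Glycogen synthase carried the clearest pattern of the 4 genes. Gys1 had intensities of 420.4, 415.3 and 296.8 in hypoxic null cells and 1049.7, 873.5 and 509.2 in hypoxic wild-type cells. It had 324.4 and 283.2 in normoxic adeno-treated cells and 281.9 and 350.8 in normoxic untreated cells. Every hypoxic wild-type array was above all of the 7 others, which 54 of 7453 probe sets tested also showed (0.725%), while the null arrays overlapped with the normoxic ones. The means were 377.5 ± 69.9 in null cells (SD, n = 3), 810.8 ± 276 in hypoxic wild-type cells (n = 3), 303.8 ± 29.1 in normoxic adeno-treated cells (n = 2) and 316 ± 48.7 in untreated cells (n = 2).

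For Pgm1 the group standing apart was the null cells, below the others. Its intensities were 1478.2, 1532.1 and 1682.7 in hypoxic null cells and 2478.8, 2591.1 and 2084.8 in hypoxic wild-type cells. They were 2090.7 and 2106 in normoxic adeno-treated cells and 2034.6 and 2431.1 in untreated cells. All 3 null arrays lay below all of the 7 others, as in 76 of 7453 probe sets (1.02%), whereas hypoxic wild-type and normoxic arrays overlapped. The means were 1564 ± 106 in null cells (SD, n = 3), 2385 ± 266 in hypoxic wild-type cells (n = 3), 2098 ± 10.8 in normoxic adeno-treated cells (n = 2) and 2233 ± 280 in untreated cells (n = 2).

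Gbe1 showed no group apart from the rest. It gave 160, 197.9 and 266.9 in hypoxic null cells and 199.2, 219.6 and 316.8 in hypoxic wild-type cells. It gave 332.3 and 258.5 in normoxic adeno-treated cells and 288.7 and 212.9 in untreated cells. The means were 208 ± 54.2 in null cells (SD, n = 3), 245 ± 62.8 in hypoxic wild-type cells (n = 3), 295 ± 52.2 in normoxic adeno-treated cells (n = 2) and 251 ± 53.6 in untreated cells (n = 2). Ordered by their means, neighbouring groups all overlapped.

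Pgm2 read closer to the filter. It gave 98.5, 88.7 and 84 in hypoxic null cells and 145.7, 86.5 and 63.3 in hypoxic wild-type cells. It gave 72.6 and 38.2 in normoxic adeno-treated cells and 100.1 and 60.7 in untreated cells. The hypoxic wild-type arrays spanned the range of every other group except the lowest normoxic readings. The means were 90.4 ± 7.40 in null cells (SD, n = 3), 98.5 ± 42.5 in hypoxic wild-type cells (n = 3), 55.4 ± 24.3 in normoxic adeno-treated cells (n = 2) and 80.4 ± 27.9 in untreated cells (n = 2).

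**Figure D1:**
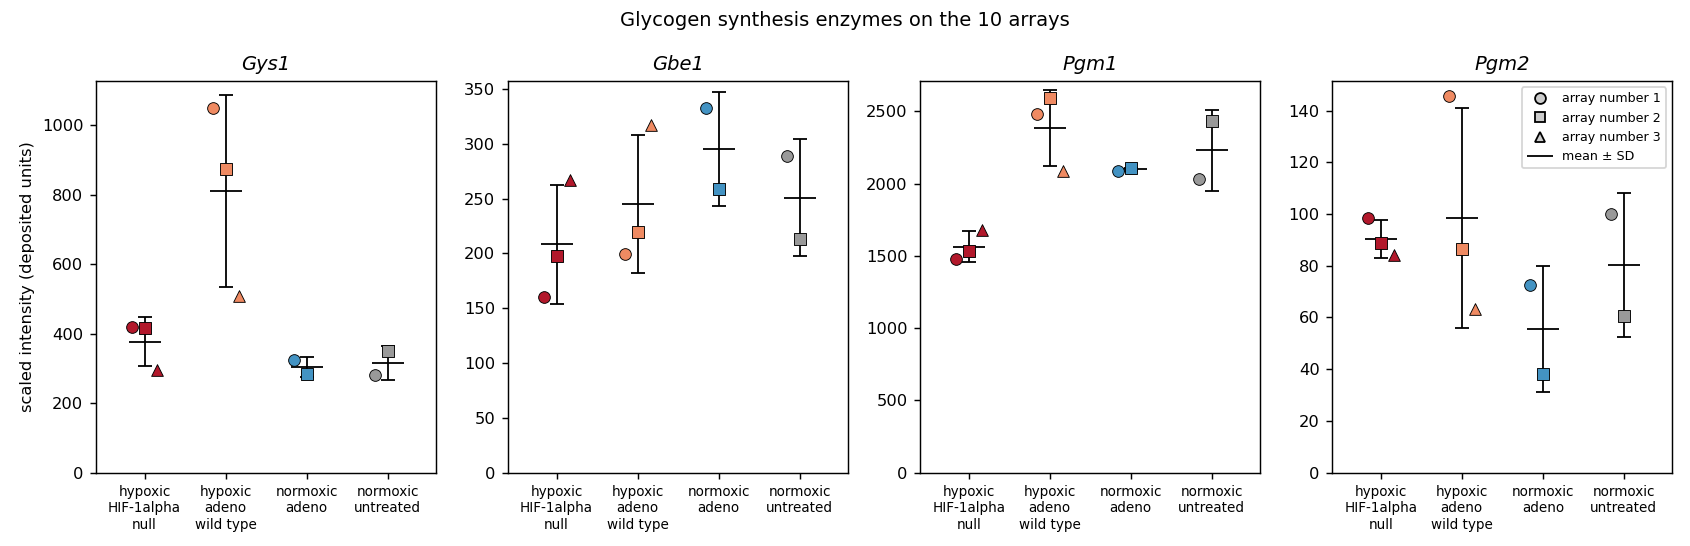
Deposited intensity (arbitrary units, each panel starting at 0) of Gys1, Gbe1, Pgm1 and Pgm2 on each of the 10 arrays, by group, with symbols for array numbers 1, 2 and 3 and bars for the group mean ± SD. The 3 hypoxic wild-type arrays of Gys1 lie above all others, and the 3 null arrays of Pgm1 lie below all others.

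The comparison of null with wild-type cells in hypoxia reads these transcripts with and without HIF-1alpha when oxygen is low. The wild-type cells were adeno-treated, and the labels name no such treatment for the null cells. Genotype and any difference in adeno treatment therefore cannot be told apart in this comparison. Gys1 and Pgm1 were lower in null cells on every array, Gbe1 was lower in each same-number pair but overlapped between groups, and Pgm2 had no common direction. Differences were tested on log2(intensity + 4.7) with limma over all 10 arrays, with p-values adjusted over the 7453 probe sets, either on group means alone or with the array number (1, 2 or 3) added as a replicate block. Same-numbered arrays deviated together from their group means across probe sets, strongly within hypoxia (r of 0.541 to 0.677 between null and wild type) and less between hypoxic and normoxic arrays (0.102 to 0.356). Number 2 normoxic arrays correlated with hypoxic arrays of number 3 at 0.154 to 0.253, no less than with those of number 2 at 0.102 to 0.173, so the blocked values against normoxic cells rest on a pairing that these correlations do not single out. The labels do not say whether arrays came from separate cultures, so the p-values measure only the spread between these arrays.

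Gys1 in null cells was 0.484 times its level in wild-type cells, a log2 difference of -1.05 (95% interval -1.64 to -0.45), the 19th lowest of 7453 probe sets. Without the block it did not pass the threshold of 0.05 (adjusted p = 0.626, limma), and no probe set did (0 of 7453, 0%), although 259 had an unadjusted p under 0.05 (3.48%). With the replicate block it fell by 1.05 (interval -1.39 to -0.71, adjusted p = 0.0467, limma), among 8 probe sets called (0.107%), 7 of them lower (0.0939%). That call was lost when any 1 of the 10 arrays was left out, with adjusted p between 0.0533 and 0.273. Within numbers 1, 2 and 3 the log2 difference of null minus wild type was -1.31, -1.06 and -0.77, so it had the same sign in 3 of 3 pairs. Gys1 was lowest on the number 3 array of each hypoxic group, as were the stellate and fibroblast, biliary, macrophage and endothelial marker sums. The part of those cells in the Gys1 reading was not tested. The null to wild-type difference in Gys1 stood within every number, and the stellate and fibroblast sum was also lower on the null array of each number. So were the macrophage and endothelial sums, while the biliary sum was lower in null cells within number 1 alone. Between null and wild type, 13 of 15 stellate and fibroblast, 7 of 9 macrophage and 7 of 8 hepatocyte probe sets had a negative difference. So did 2 of 3 biliary and 2 of 2 endothelial probe sets, 0 of 3 skeletal muscle ones, and 3357 of all 7453 tested. None of these marker probe sets was called in either fit, and their part in the Gys1 difference was not tested.

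Pgm1 in null cells was 0.658 times its wild-type level, a log2 difference of -0.60 (interval -0.92 to -0.29). It did not pass the threshold in either fit (adjusted p = 0.554 without and 0.0773 with the block, limma). Null minus wild type was -0.74, -0.76 and -0.31 on the log2 scale in pairs 1, 2 and 3. Gys1 and Pgm1 were thus 2 of 4 genes with every null array below every wild-type array, set against 2.75% of all probe sets.

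Gbe1 differed by -0.23 (interval -0.79 to 0.32, adjusted p = 0.999, or 0.728 with the block, limma), with -0.31, -0.15 and -0.24 in pairs 1, 2 and 3. Being lower in 3 of 3 pairs was shared by Gys1, Pgm1 and Gbe1, and by 14.4% of all probe sets. Pgm2 differed by -0.04 (interval -0.79 to 0.71, adjusted p = 0.999, or 0.981 with the block, limma). Its pairs gave -0.54, 0.03 and 0.38, so the sign changed between pairs. The median over the 4 genes was -0.42, against 0.02 over all probe sets tested.

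**Figure D2:**
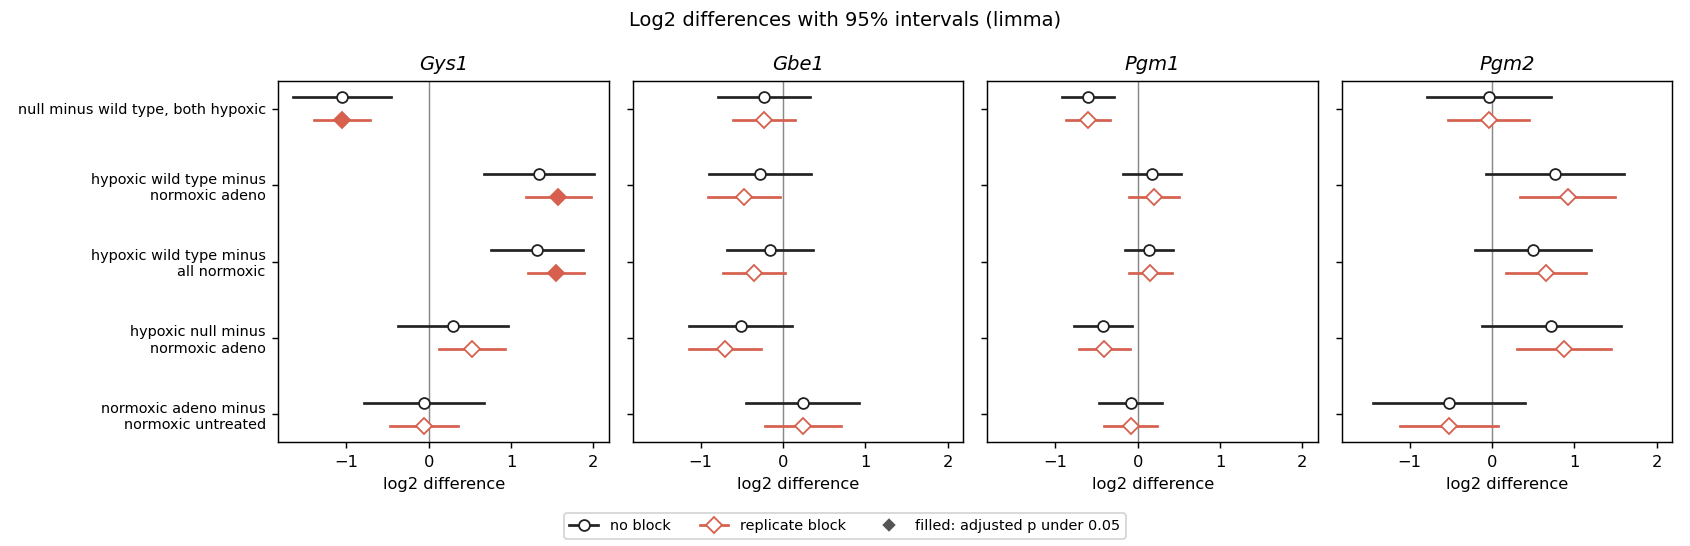
Log2 difference of each gene in 5 comparisons (horizontal axis), with 95% intervals from limma, in circles without and diamonds with the array number as a replicate block, filled where the adjusted p was under 0.05. Filled symbols stand only in the Gys1 panel, at -1.05 for null minus wild type and at 1.57 and 1.55 for hypoxic wild type minus normoxic adeno-treated and minus all normoxic cells, all with the block.

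The comparison of hypoxic wild-type with normoxic cells reads the difference between the oxygen labels. It shows the response of wild-type cells to low oxygen only if the normoxic cells were wild type, which the labels do not state. Gys1 was higher in hypoxia, while Pgm1, Gbe1 and Pgm2 overlapped with their normoxic values. Against normoxic adeno-treated cells Gys1 was 2.54-fold higher, a log2 difference of 1.34 (interval 0.68 to 2.01), the 55th highest of 7453 probe sets. Without the block this did not pass (adjusted p = 0.167, limma), where 25 probe sets did (0.335%). With the block Gys1 rose by 1.57 (interval 1.18 to 1.97, adjusted p = 0.00212, limma), among 164 probe sets called (2.2%), 110 of them higher (1.48%). In that blocked fit, markers of other cells differed as well: 14 of 15 stellate and fibroblast probe sets had a positive difference (median 0.45, 0 called), both Krt19 probe sets, a biliary keratin, were among 3 biliary probe sets (median 1.77, 2 called higher), 1 of 9 macrophage probe sets was called higher and 2 of 8 hepatocyte probe sets were called lower. The part of these cells in the Gys1 difference was not tested. The fitted difference changed with the block because no normoxic array carries the number 3, on which wild-type Gys1 was lowest. In numbers 1 and 2 taken alone, hypoxic wild type minus normoxic adeno-treated was 1.68 and 1.61.

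The set of all 4 normoxic arrays includes the 2 without adeno treatment, so oxygen and adeno treatment are partly joined there. Against that set Gys1 was higher by 1.32 (interval 0.76 to 1.87, adjusted p = 0.0599, limma), just above the threshold that 42 probe sets passed (0.564%). With the block it rose by 1.55 (interval 1.21 to 1.89, adjusted p = 0.000682, limma), among 455 probe sets called (6.1%), 226 of them higher (3.03%). There 3 of 15 stellate and fibroblast, 2 of 3 biliary and 1 of 9 macrophage probe sets were called higher too, and 2 of 8 hepatocyte probe sets were called lower. Without hypoxic wild-type array 3 the unblocked fits called Gys1 too, at 1.64 against adeno-treated cells (adjusted p = 0.0313, limma) and 1.62 against all normoxic cells (adjusted p = 0.0130, limma). With the block, the call against adeno-treated cells was lost only without normoxic adeno-treated array 2 (adjusted p = 0.0505, limma).

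Pgm1 was higher by 0.18 against adeno-treated cells (interval -0.17 to 0.53, adjusted p = 0.842, or 0.470 with the block, limma). Gbe1 differed by -0.28 (interval -0.90 to 0.34, adjusted p = 0.859, or 0.226 with the block, limma). Pgm2 differed by 0.76 (interval -0.08 to 1.60, adjusted p = 0.673, or 0.0937 with the block, limma). In numbers 1 and 2 the differences were 0.25 and 0.30 for Pgm1, -0.72 and -0.23 for Gbe1, and 0.96 and 1.09 for Pgm2. These intervals, from the fit without the block, span 0 in all 3 genes. With the block the interval was -0.11 to 0.50 for Pgm1, -0.92 to -0.03 for Gbe1 and 0.34 to 1.49 for Pgm2, so it still spanned 0 for Pgm1 alone. Gys1 was the 1 gene of the 4 with every hypoxic wild-type array above the normoxic ones, as were 11.7% of all probe sets against the 2 adeno-treated arrays and 5.22% against all 4 normoxic arrays.

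The same 3 wild-type arrays enter both comparisons above, so the values are only set side by side. With the block, 3 probe sets were called both higher in hypoxic wild-type than in normoxic adeno-treated cells and lower in null than in wild-type cells in hypoxia (0.0403% of 7453). They were Gys1, Hk2, a hexokinase, and Egln1, a prolyl hydroxylase that marks HIF-1alpha for breakdown in the presence of oxygen.

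Hypoxic null cells set against normoxic adeno-treated cells combine genotype, oxygen and any difference in adeno treatment. None of the 4 genes passed in either fit, where 33 probe sets were called without (0.443%) and 433 with the block (5.81%). Gys1 differed by 0.29 (interval -0.37 to 0.96, adjusted p = 0.809, or 0.116 with the block, limma). Pgm1 differed by -0.42 (adjusted p = 0.397, or 0.118 with the block, limma) and Pgm2 by 0.72 (adjusted p = 0.579, or 0.0793 with the block, limma), and in both the 3 null arrays lay to one side of the 2 normoxic ones, as in 25.9% of all probe sets. Gbe1 differed by -0.51 (adjusted p = 0.589, or 0.0683 with the block, limma).

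Adeno treatment of normoxic cells moved none of the 4 past the threshold. The log2 differences of adeno-treated minus untreated cells were -0.05 for Gys1, 0.24 for Gbe1, -0.08 for Pgm1 and -0.52 for Pgm2. Adjusted p-values lay between 0.778 and 0.980 (limma), and between 0.330 and 0.906 with the block. All 4 genes overlapped between the groups, while 49% of all probe sets did not, a share that 2 arrays against 2 make large. No probe set was called without the block by limma (0%, with 619 or 8.31% at an unadjusted p under 0.05), and 18 were with it (0.242%).

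The other enzymes of glycogen synthesis were read for 4 of 10 listed genes, as 5 tested probe sets. Of these, Hk2 was the 1 gene to pass a test in any of the 5 comparisons, in either fit. Hk2, which makes glucose 6-phosphate, had 179.8, 138.7 and 130.3 in null cells, 479.7, 317.2 and 393.3 in hypoxic wild-type cells, 81.3 and 49 in normoxic adeno-treated cells and 97.9 and 86.8 in untreated cells. The 3 hypoxic wild-type arrays lay above the null arrays, which lay above the normoxic arrays. Of all probe sets tested, 0.725% had every hypoxic wild-type array above the 7 others. In 13.8% every null array was above the normoxic adeno-treated ones. Hk2 rose in hypoxic wild-type over normoxic adeno-treated cells by 2.54 (adjusted p = 0.00345, limma). Null cells were lower than wild type in hypoxia by a log2 difference of -1.37, which passed with the block (adjusted p = 0.0260, limma) and not without it (adjusted p = 0.316, limma). Null cells were above normoxic adeno-treated cells by 1.21 with the block (adjusted p = 0.00792, limma), and without the block this difference was not called. Leaving out null array 2 or 3, any of the 3 hypoxic wild-type arrays or normoxic adeno-treated array 1 ended the Hk2 call between null and wild type (adjusted p up to 0.116, limma). Without normoxic adeno-treated array 2, the unblocked rise in wild type was 2.20 (adjusted p = 0.0729, limma), and the null difference with the block was 1.06 (adjusted p = 0.106, limma), as it was 1.13 without null array 2 (adjusted p = 0.0597, limma).

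Ugp2, which makes UDP-glucose from the product of phosphoglucomutase, had 433.7, 561.9 and 679.2 in null cells and 697.6, 792.9 and 907.1 in hypoxic wild-type cells. It had 477.8 and 551.9 in normoxic adeno-treated cells and 604.9 and 850.5 in untreated cells. Every null array was below every hypoxic wild-type array, by a narrow margin (679.2 against 697.6), as in 2.75% of all probe sets tested. Null minus wild type was -0.68, -0.49 and -0.41 in pairs 1, 2 and 3, and 14.4% of all probe sets were lower in 3 of 3 pairs. The log2 difference was -0.53 (adjusted p = 0.999, or 0.127 with the block, limma), and that of wild-type over normoxic adeno-treated cells was 0.63 (adjusted p = 0.512, or 0.0872 with the block, limma). Hk1 differed by 0.01 between null and wild type and by 0.53 between hypoxic wild-type and normoxic adeno-treated cells (adjusted p = 0.536, limma). The 2 probe sets of Gyg, the glycogenin primer, disagreed in sign between null and wild type, at 0.34 and -0.25. Over the 5 probe sets the median was -0.25 for null against wild type and 0.53 for hypoxic wild type against normoxic adeno-treated cells, beside 0.02 and -0.02 over all probe sets.

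Enzymes of glycogen breakdown and glucose release were read for 7 of 9 genes, of which 6 were tested, and none passed without the block in any comparison. With it, G6pc, the glucose-6-phosphatase that lets liver release glucose, fell by 1.37 in hypoxic wild-type against normoxic adeno-treated cells (adjusted p = 0.00419, limma). Slc37a4, which carries glucose 6-phosphate to that enzyme, differed there by -0.77 (adjusted p = 0.0502, limma). In hypoxic wild-type against all normoxic cells both passed, with G6pc falling by 1.40 (adjusted p = 0.00119, limma) and Slc37a4 by 0.67 (adjusted p = 0.0276, limma). In null against normoxic adeno-treated cells G6pc fell by 1.61 (adjusted p = 0.00145, limma), and Slc37a4 fell to 0.500 times its normoxic level (adjusted p = 0.0117, limma). Hepatocyte markers were lower as well with the block: in null against normoxic adeno-treated cells 8 of 8 probe sets were lower (median -0.43, 3 called, of Tat, Cps1 and Ttr), and in wild-type against normoxic adeno-treated cells 6 of 8 were (median -0.33, 2 called, of Tat and Cps1). The part of this shift in G6pc and Slc37a4 was not tested. Without normoxic adeno-treated array 2 the G6pc difference in wild type was -1.21 (adjusted p = 0.102, limma), and without array 1 of that group the Slc37a4 difference in null cells was -0.77 (adjusted p = 0.106, limma). Neither passed between null and wild type in hypoxia, at -0.24 for G6pc (adjusted p = 0.999, or 0.678 with the block, limma) and -0.23 for Slc37a4 (adjusted p = 0.999, or 0.674 with the block, limma). G6pc ran with the array number, with 272, 694.9 and 1020.2 in null cells, 251.6, 805.2 and 1559.1 in hypoxic wild-type cells, 681.4 and 2309.2 in normoxic adeno-treated cells and 837.4 and 2014.2 in untreated cells. Its lowest array was thus number 1 in every group. Between null and wild type in hypoxia, Gaa, the lysosomal glucosidase, differed by -0.16, Pygb, the brain-type phosphorylase, by -0.09, and Stbd1, a glycogen-binding protein, by 0.05. Stbd1 means were higher in hypoxia, at 1719 ± 848 in null and 1590 ± 615 in wild-type cells (SD). They were 1003 ± 13.8 in normoxic adeno-treated and 638 ± 31.6 in untreated cells. Pygb means were 41.2, 44.4, 31.9 and 49.0 in the same order, and neither gene was called in any comparison.

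Of 25 kinases, phosphatases and regulators of glycogen metabolism, 14 had a probe set and 10 were tested, as 14 probe sets. None of them was called in any of the 5 comparisons in either fit. Between null and wild type in hypoxia the log2 differences were -0.32 for Prkaca, the catalytic subunit of protein kinase A, 0.28 for 1 probe set of Ppp1r2, a protein phosphatase inhibitor, and 0.36 for Ppp1r3c, which targets protein phosphatase to glycogen. All had an adjusted p of 0.999 (limma). For Csnk2a1, also of this list, 1 probe set differed by -0.31, with -0.48, -0.29 and -0.15 in pairs 1, 2 and 3. Its other probe sets differed by -0.21, -0.13 and 0.13, so the gene had no common direction. The probe set at -0.13 had 218, 158.8 and 127.3 in hypoxic wild-type cells and 147.5 and 112.4 in normoxic adeno-treated cells. The Ppp1r3c difference between hypoxic wild-type and normoxic adeno-treated cells was -0.86 (adjusted p = 0.834, or 0.243 with the block, limma).

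**Figure D3:**
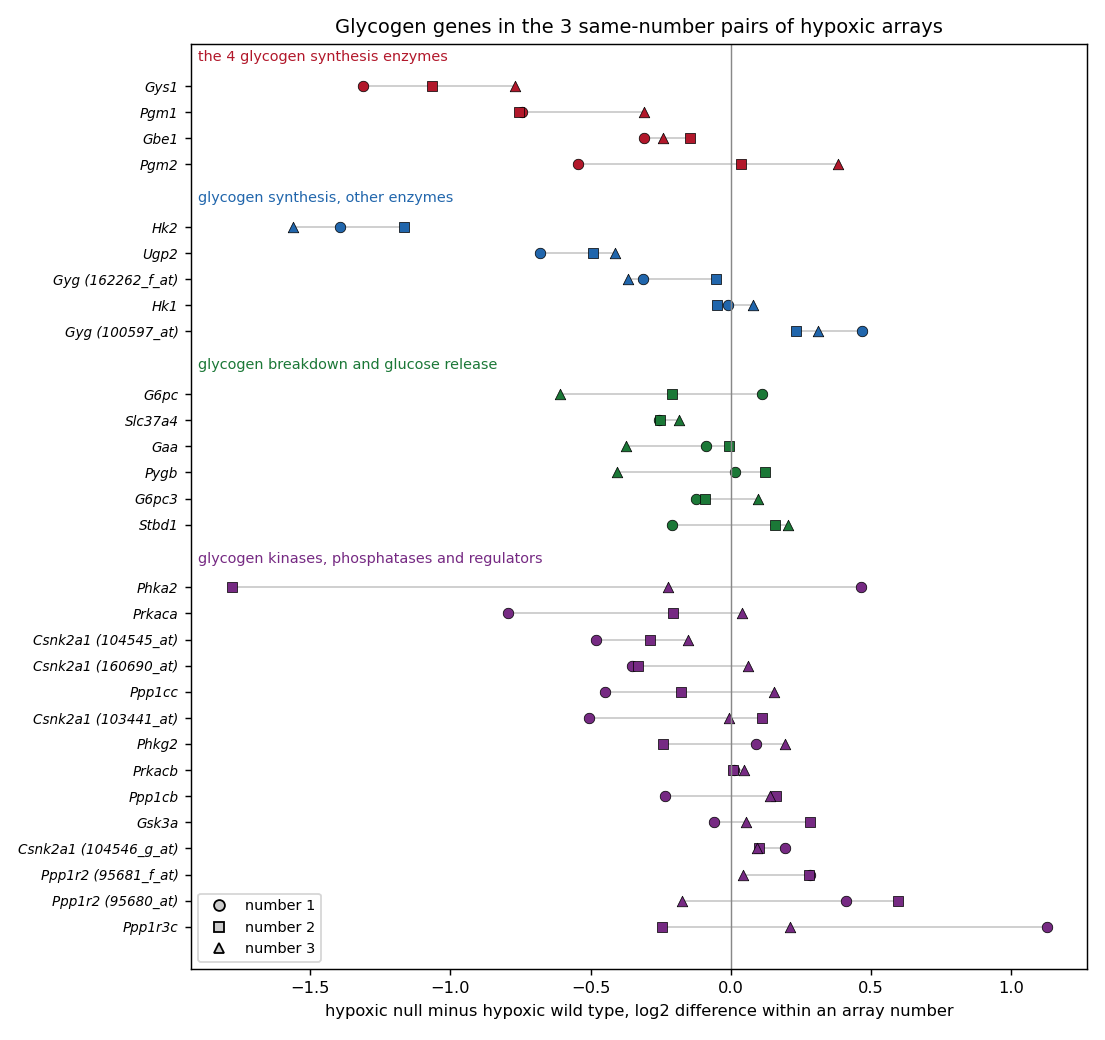
Null minus wild-type log2 difference within array numbers 1 (circles), 2 (squares) and 3 (triangles) in hypoxia, for the 4 glycogen synthesis enzymes and the tested probe sets of the other glycogen lists, with a line over each gene's range. Gys1 (-1.31 to -0.77), Pgm1, Gbe1, Hk2 and Ugp2 lie left of 0 in 3 of 3 pairs. So do Slc37a4 and Gaa of the breakdown list, 1 probe set each of Gyg and Csnk2a1, and 14.4% of all probe sets tested. Most regulators spread over 0.

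The genes nearest to each enzyme over the 10 arrays were ranked by Pearson's r of log2 values among 6721 candidate probe sets, as a description. The points share groups, array numbers and scaling. For Gys1 they were P4ha1 (0.900) and P4ha2 (0.896), the alpha subunits of the collagen-modifying prolyl 4-hydroxylase, and Hk2 (0.873). For Pgm1 they were Pdk1 (0.958), a kinase that restrains pyruvate entry into mitochondria, Fam162a (0.931) and Hikeshi (0.893). Pdk1 had 121.6, 149.5 and 164.5 in null cells, 428.5, 323.4 and 246.3 in hypoxic wild-type cells, 219.3 and 255 in normoxic adeno-treated cells and 250.7 and 302.2 in untreated cells. Its null arrays were also below all 7 others, as in 1.02% of all probe sets tested. Pdk1 was picked for its likeness to Pgm1 on these same arrays, so the shared order is no separate support. For Gbe1 the nearest were Rpp25l (0.927), 4931406C07Rik (0.905) and Mtx2 (0.879), and for Pgm2 they were Myo7a (0.976), Ipo5 (0.927) and Ube2k (0.925). No gene was nearest to 2 of the enzymes. Among the 4 enzymes themselves r was 0.464 for Gys1 with Pgm1, 0.552 for Gys1 with Pgm2 and 0.246 for Gbe1 with Pgm1, and it was -0.391 for Gys1 with Gbe1, -0.393 for Gbe1 with Pgm2 and -0.077 for Pgm1 with Pgm2.

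**Figure D4:**
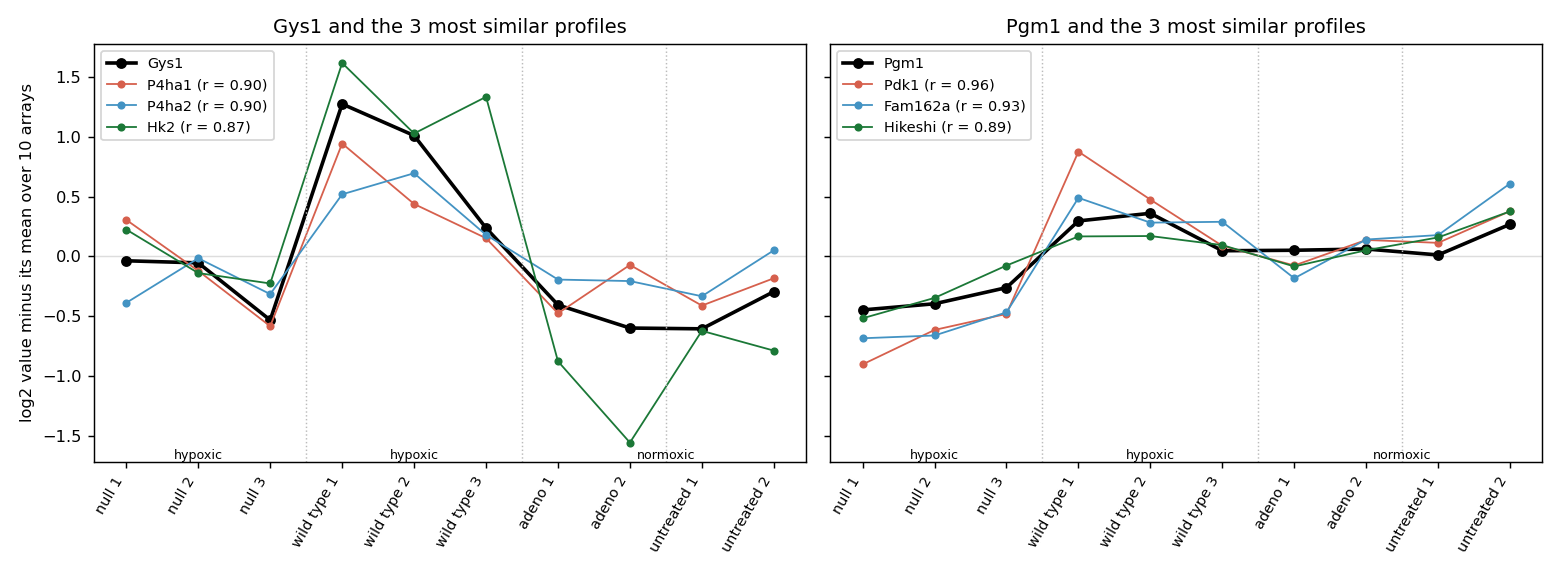
Log2 values of Gys1 and of Pgm1, each with its 3 nearest genes, on the 10 arrays, each shown as its deviation from its own mean, with hypoxic null and hypoxic wild-type arrays left of the normoxic adeno-treated and untreated ones. On average, Gys1 and its neighbours are highest on hypoxic wild-type arrays, and Pgm1 and its neighbours are lowest on null arrays.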

How the data were processed

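Total RNA of 10 hepatocyte samples was read on oligonucleotide arrays. The deposited table holds 1 linear intensity per probe set and array, and the labels do not state how the authors summarised probes or corrected background. Near-equal trimmed means show that the arrays were scaled to a common level. Genes were named through the platform annotation and RefSeq gene IDs: 10855 probe sets had 1 symbol, 396 several and 1237 none.

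Intensities were analysed as log2(intensity + 4.7), where 4.7 is the 10th percentile of all values. The 66 control probe sets were left out, and probe sets whose mean was below the 40th percentile (40.1) were not tested, which left 7453. Group means of all 10 arrays entered a linear model in limma 3.58.1 under R 4.3.3 (eBayes with trend, 6 residual degrees of freedom, 4 with the block), two-sided, with Benjamini-Hochberg adjustment over all probe sets and a threshold of 0.05. The fit was tested on simulated data with known differences. Same-number pairs correlated at 0.102 to 0.677 in their deviations from group means (13 pairs), which met the minimum of 0.1 set for pairing. Hypoxic arrays of different number correlated at -0.514 to -0.156. Deviations cancel out within a group, so these negative values follow in part from the positive ones and are no separate support. With 2 arrays in each normoxic group, their deviations mirror each other, and number 2 normoxic arrays correlated at 0.154 to 0.253 with hypoxic arrays of number 3. The replicate block is printed beside the results.

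The 4 enzymes and the gene lists were chosen with earlier results of these data known. From the glycogen lists the text names the gene of every probe set called. It also names the genes of smallest p between null and wild type and between hypoxic wild-type and normoxic adeno-treated cells. For each enzyme it names the 3 probe sets of highest r. The number of arrays limits the precision.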

Additional observations from a re-analysis of the deposited data

How the results depend on the processing

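The alternatives were an offset of 2.35 or 18.8, no filter or a filter at the 60th percentile, no trend, quantile normalization, the replicate block with and without quantile normalization, the removal of both number 3 hypoxic arrays, and each array left out in turn with and without the block. Over 20 differences (4 genes in 5 comparisons) and 595 settings of them, 34 were called, 2 of them for a gene other than Gys1, and 10 changed sign. At the 60th percentile Pgm2 was not tested.

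Gys1 gained a call as follows (log2 difference, adjusted p, limma). Null against wild type reached -1.05 (0.0467) with the replicate block and -1.07 (0.0371) with the block after quantile normalization, and without number 3 it was not called in either fit. Wild type against normoxic adeno-treated cells reached 1.57 (0.00212) with the block, 1.60 (0.00222) with block and quantile normalization, and 1.64 without number 3 (0.0161, or 0.00454 with the block). Wild type against all normoxic cells reached 1.32 (0.0494) at the 60th percentile, 1.55 (0.000682) with the block, 1.57 (0.000814) with block and quantile normalization, and 1.62 without number 3 (0.00669, or 0.00146 with the block).

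With 1 array left out, the Gys1 range was -1.35 to -0.83 for null against wild type (-1.19 to -0.92 with the block), 1.13 to 1.64 for wild type against adeno-treated cells (1.41 to 1.68) and 1.10 to 1.62 against all normoxic cells (1.38 to 1.67). Pgm2 was called with the block without null array 1, at 0.98 for wild type (adjusted p = 0.0487, limma) and 1.18 for null (adjusted p = 0.0394, limma) against adeno-treated cells, over ranges of 0.34 to 1.19 and 0.30 to 1.18 with or without the block. Signs changed, with no call, for adeno-treated against untreated cells in Gys1 (-0.29 to 0.18) and Pgm1 (-0.21 to 0.044), and for null against wild type in Pgm2 (-0.30 to 0.27), G6pc (-0.95 to 0.36) and Slc37a4 (-0.53 to 0.080). G6pc in wild type against adeno-treated cells ran from -1.75 to 0.0024.

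The number of probe sets called moved with the block and with the arrays left out. For null against wild type it was 8 with the block, 12 with block and quantile normalization, and 1 without number 3 in either fit, with 0 to 27 when 1 array was left out. For wild type against adeno-treated cells it was 164 with the block, 158 with quantile normalization and 98 without number 3, with 3 to 218. Against all normoxic cells it was 455, 453 and 243, with 15 to 478. For null against adeno-treated cells it was 433, 371 and 214, and 18 without number 3 and without the block, with 3 to 447. For adeno-treated against untreated cells it was 18, 1 and 3, with 0 to 81. The cause was not tested. Signal over background is not given per probe set, so how far dim readings such as Pgm2 limit a call was not tested.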
